A study of Schmidtea mediterranea with 58 samples.

Results

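H3K4me3 was measured by chromatin immunoprecipitation and sequencing (ChIP-seq) in whole *mll*(RNAi) worms and in whole *unc*(RNAi) control worms of the planarian *Schmidtea mediterranea*. The members are the 5169 regions of the genome that the authors' table for this comparison lists, each counted once, of 16158 regions in the 7 comparisons of the series (32.0%). Each group held 2 H3K4me3 libraries. The *mll*(RNAi) worms ate double-stranded RNA against *mll* in liver paste over 9 days, and the control worms ate double-stranded RNA against *unc*, for which the labels give no days. Both groups were immunoprecipitated with the same lot of antibody, and the labels give neither the strain nor the age of the worms. The labels list 58 samples in all. The other comparisons are *set1*(RNAi) in whole worms (8633 regions) and, in sorted cells, *mll*(RNAi) and *set1*(RNAi) of X1 (306 and 554 regions) and of Xins (12 and 106 regions), and untreated X1 against Xins cells (1378 regions), each with 2 libraries in a group and, for RNAi, its own *unc*(RNAi) controls.

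H3K4me3 is the trimethylated form of a lysine near the end of histone H3. In animals it marks nucleosomes around the starts of transcribed genes. It is written by complexes built around a SET-domain enzyme. Set1 enzymes serve most active genes in other animals, whereas the MLL1/2 branch of the family, after which *mll* is named, is recruited to a smaller set of genes. In planarians, X1 is the usual name of the sorted cells with more than the resting DNA content, which are dividing stem cells (neoblasts), and Xins that of the differentiated cells that irradiation leaves. A whole worm holds both and everything between, so a lower value can come from fewer cells that carry the mark or from less of the mark in each cell, and these cannot be told apart here. The study asked whether Set1 and MLL1/2 maintain the mark at different loci.

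A region is a stretch of 1000 to 3600 bases (median 1300), and the 5169 regions lie on 3338 scaffolds whose names begin with v31 (genome build not given in the sources used here). They stand beside 6245 gene identifiers, which the table does not pair with gene names, so that genes are given here by identifier and neither the *mll* gene itself nor marker genes of a cell type could be looked up. Signal is given as the normalized count, the reads of a library in a region after the authors' scaling between libraries. The median region held 647 and 632 reads in the *mll*(RNAi) libraries and 1072 and 852 reads in the control libraries, with a range of 75 to 4168 over the 5100 regions in which reads could be recovered. Replicates lay close together. The 2 libraries of a group differed by a median of 0.05 (*mll*) and 0.042 (control) on the log2 scale and by less than counting error (chi-square per degree of freedom 0.729 and 0.758). The table does not say which library is replicate 1, the labels do not say that the libraries came from separate cultures, and the authors listed the regions on these same libraries. The p-values below therefore measure only the spread between these libraries, pooled over regions, and that spread may be technical. With each pair counted as 1 sample there would be no replicate and no test. An exact two-sided permutation test of 2 against 2 libraries cannot go below p = 0.33 for any single region.

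Among the listed regions and under the authors' scaling, H3K4me3 fell strongly at a small set and moved little at the others. Whether that scaling would keep a change common to all regions is not given in the sources used here. The log2 change from control to *mll*(RNAi) ranged from -1.92 to 0.58, with a median of -0.03 and quartiles of -0.12 and 0.06. It was below 0.1 in either direction at 3103 regions (60%). At 215 regions (4.2%) the mark fell by 0.5 or more and at 28 by 1 or more, whereas only 51 regions rose by 0.2 or more. Limma, a linear model fitted across all 5169 regions, called 1361 regions lower (26.3% of all) and 564 higher (10.9%) at a Benjamini-Hochberg adjusted p-value below 0.05. The median standard error of a change was 0.046. Limma pools this error over regions of like mean count, so it hardly follows the 2 libraries of a single region. SMED30013013, with 949 and 1124 after *mll*(RNAi), had a standard error of 0.043, and SMED30035848, with 926 and 938, had 0.044. The very small adjusted p-values of limma rest on that pooling. Judged without a model, both *mll*(RNAi) libraries lay below both control libraries at 2309 regions (44.7%) and above both at 1527 (29.5%), and the groups overlapped at 1333. All 215 large falls were among the regions called lower, and none of them had overlapping groups. Both follow from their choice by size in these same libraries, where no standard error exceeded 0.108, and add no support. Fewer regions were called in both directions when any 1 library was left out, most of all without a control library. The 215 large falls stayed lower in each case, but with replicates at most 0.359 apart falls of this size could not turn. The scaling decided the direction of small changes. The medians of the libraries differed by -0.10 between the groups, and with each library centred on its median limma called 782 regions lower and 2197 higher. The 215 large falls were lower and called under that centring too. Centring moves every change by the same 0.10, so falls of 0.5 or more could not turn there. With the libraries brought to 1 distribution (quantile normalization), limma called 866 lower and 982 higher, and 212 of the 215 stayed lower.

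The deepest fall was at the start of SMED30025729 (scaffold v31.021203, 501 to 1700). The *mll*(RNAi) libraries had normalized counts of 87.8 and 88.8 there and the control libraries 342.7 and 332.2, so that 26.2% of the control signal was left (log2 change -1.92, standard error 0.108, limma adjusted p 2.56e-67). The second was at the start of SMED30018035 (v31.001173, 11301 to 12900), with 200.4 and 238 against 653 and 666 (log2 change -1.59, standard error 0.067, limma adjusted p 1.05e-116). In both regions the groups were separated by more than the whole distance between replicates. SMED30002977 (v31.001122, 50001 to 51200) had 192 and 187 after *mll*(RNAi) against 543 and 526. SMED30027304 (v31.010417, 3201 to 4400) had 139 and 161 against 450.0 and 391. SMED30025039 (v31.005581, 8101 to 9500) had 166 and 162 against 475 and 422. Each of these regions lies over the start of the gene it is named for, and each kept 35.4% to 36.5% of its control signal. At the start of SMED30030034 (v31.000754, 129401 to 131000) 36.9% was left, with 233 and 230.1 against 636 and 620.03. SMED30022889 (v31.004210, 19701 to 20800) had 166 and 167 against 428 and 441, SMED30008443 (v31.000440, 86901 to 88000) 208 and 197 against 514 and 523, and SMED30023688 (v31.025446, 4101 to 5700) 156 and 166 against 414 and 393. Only 1 of the 10 deepest falls lay outside a gene start, the region at 838 bases from the start of SMED30023936 (v31.002898, 43501 to 44600). Its counts were 183 and 156 against 468 and 466. Over the 10 regions the standard errors ran from 0.067 to 0.108.

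**Figure D1:**
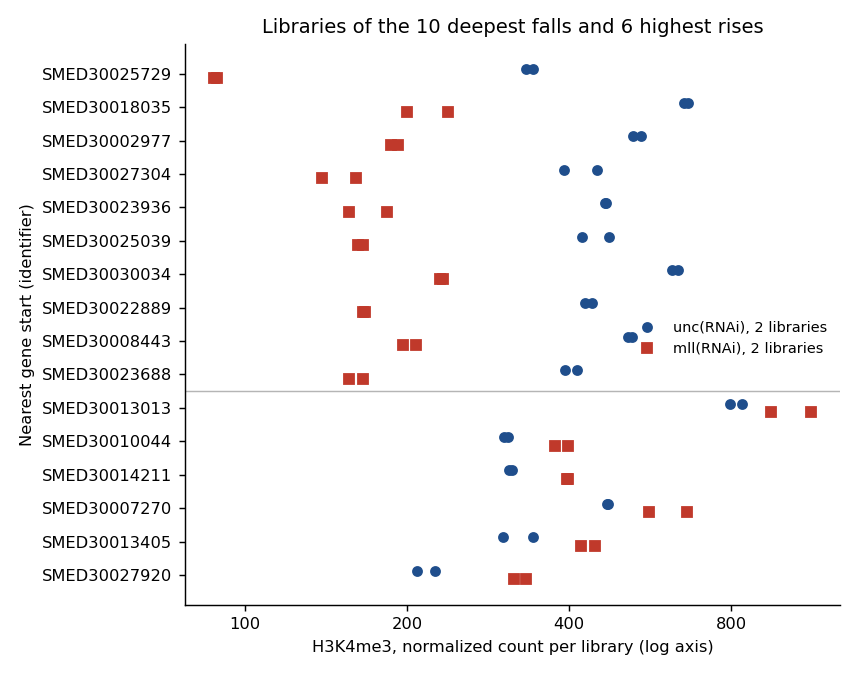
Normalized H3K4me3 count of each library (horizontal log axis) at the 10 regions with the deepest falls and the 6 with the highest rises, labelled by the identifier of the nearest gene start. Squares are the 2 *mll*(RNAi) libraries and circles the 2 *unc*(RNAi) libraries of each region. At the falls every square lies far to the left of both circles (26.2% to 39.8% of the control mean), and at the rises the squares lie to the right by a smaller distance (126.7% to 149.5%).

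The 215 regions that fell by 0.5 or more did not cluster on single scaffolds, whose order in the genome is not given in the sources used here. They lay on 215 different scaffolds, and no scaffold held more than 1 of them. Of these, 196 (91.2%) lay over a gene start, 12 within 2000 bases of one and 7 farther away, against 75.4%, 20.5% and 4.2% of all listed regions. Together the 196 covered the starts of 215 gene identifiers, and 16 of them covered more than 1 start. They were longer than the rest (median 1600 bases, all regions 1300). Their control signal was lower, with a median normalized count of 584.8 against 802.4 over all regions. A median of 62.5% of the control signal was left at the 215 regions, and 43.4% at the 28 that fell by 1 or more.

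Enrichment over input relates the H3K4me3 signal to that of chromatin sequenced without immunoprecipitation, and the authors give it as 1 ratio for each group, with no value per library. It shows how much of the mark stood above background before and after the knockdown. Among all regions the median ratio was 11.12 in the control and 10.44 after *mll*(RNAi). Regions that fell by 0.5 or more started lower, at a median of 7.03, and ended at 4.08. The 28 regions that fell by 1 or more went from a median of 6.89 (range 4.56 to 11.5) to 2.38 (range 1.67 to 5.36), and 21 of them ended below 3, where none had been before. At SMED30025729 the ratio went from 6.95 to 1.67, at SMED30018035 from 6.43 to 1.85 and at SMED30030034 from 7.48 to 1.97. At these starts the signal was left at less than the ratio of 3 over input, against at least 4.56 in the control at all 28 regions. The ratio was lower after *mll*(RNAi) at 214 of the 215 large falls and at 69.6% of all regions. It was also lower at 199 of the 564 regions called higher by the normalized count and at 12 of the 51 that rose by 0.2 or more. The input signal implied by these ratios had a median of 79.0 after *mll*(RNAi) and 75.3 in the control, a log2 difference of 0.07, and its part in the lower ratios was not tested.

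**Figure D2:**
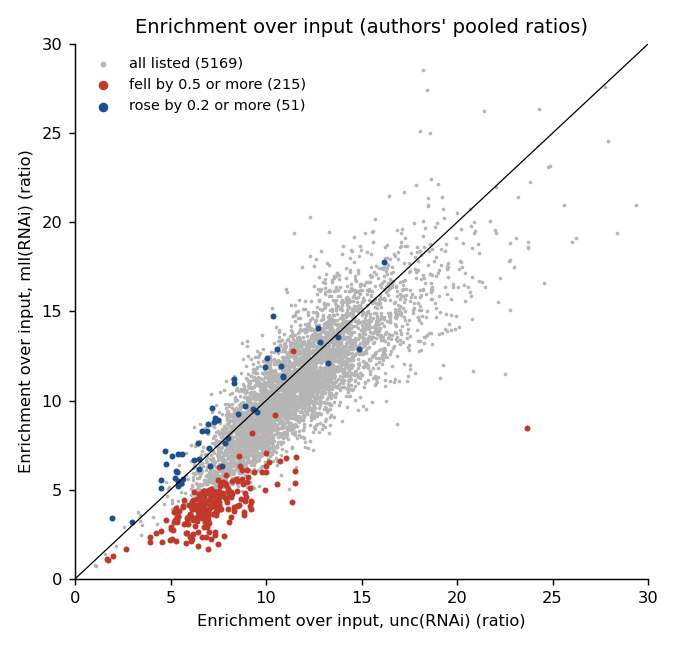
Enrichment over input in *unc*(RNAi) (horizontal) and *mll*(RNAi) worms (vertical), as the authors' ratio for each group. Each point is 1 of the 5169 regions, the line marks equal ratios, and colours mark the 215 regions whose normalized count fell by 0.5 or more and the 51 that rose by 0.2 or more. Of the 215 regions that fell, 214 lie below the line, most of them toward the weakly enriched end (median 7.03 in control, 4.08 after *mll*(RNAi)).

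Most large falls, and most rises of 0.2 or more, were found where H3K4me3 was weak. By quartiles of the control enrichment, regions in the lowest quartile (ratios below 9.3, median 8.1) were lower after *mll*(RNAi) in 73.3% of cases, with a median change of -0.16, and 15.31% of them fell by 0.5 or more. In the next quartiles 60%, 49.6% and 46.9% were lower and 0.85%, 0.39% and 0.08% fell by 0.5 or more. The mean normalized count gave the same order at its ends. Regions in the lowest quartile of the mean count were lower in 71.5% of cases and held 190 of the 215 large falls, whereas those in the highest were lower in only 26.2%, held 1 large fall and had a median change of 0.06. Across regions the rank correlation of the change with the mean count was 0.42. The mean count includes the *mll*(RNAi) libraries, so a fall itself lowers it. By quartiles of the control count alone, 64.8%, 72.2%, 59.8% and 33.0% of regions were lower. These quartiles held 137, 56, 20 and 2 of the large falls, and 33, 4, 6 and 8 of the 51 rises of 0.2 or more. The quartiles of control enrichment held 36, 9, 2 and 4 of these rises. The points share the 4 libraries, and the level and the change use the same control counts, so these relations are descriptions only. Which small changes were listed also went with the level. Among regions that changed by under 0.1, 7 had a mean count between 500 and 580 and 270 between 580 and 620, against 170 and 63 among those that fell by 0.2 or more. The rank correlation of the change with length was -0.03, but the length classes differed. Of regions of 1000 bases 53% were lower, of those of 1100 to 1400 bases 62.3%, of those of 1500 to 1800 bases 63.3%, of those of 1900 to 2300 bases 29.5%, and of the 41 regions of 2400 bases or more 43.9%. The class of 1900 to 2300 bases also had a high control signal (median 1331.4).

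**Figure D3:**
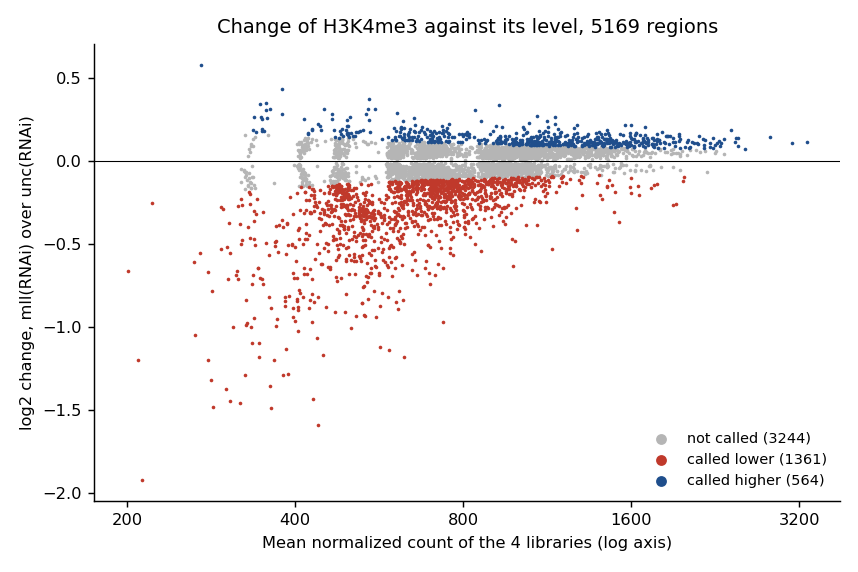
Log2 change from control to *mll*(RNAi) (vertical) against the mean normalized count of the 4 libraries (horizontal, log axis) of all 5169 regions, coloured by limma call (adjusted p-value below 0.05). Changes of 0.5 or more downward lie mostly at the left, where 190 of the 215 belong to the lowest quartile of the mean count, and regions called higher reach to the right end. A fall itself lowers the mean count, and by the control count alone 137 of the 215 belong to the lowest quartile. Of the 51 rises of 0.2 or more, 29 also belong to the lowest quartile of the mean count.

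The 2 regions with the highest control count among those called lower fell little. A high count was not high enrichment over input there. Control enrichment was 4.09 at SMED30020524.1 and 11.14 at SMED30015910, against a median of 11.12 over all regions. SMED30020524.1 (v31.033938, 201 to 2200) had 1777 and 1727 after *mll*(RNAi) against 2097 and 2103, and SMED30015910 (v31.000056, 19301 to 22300) had 1803 and 1655 against 2057 and 2096. Both fell to 83.4% and 83.3% of control (log2 changes -0.26 and -0.27, standard error 0.032 each, limma adjusted p 8.31e-15 and 4.22e-15). The 2 with the lowest control signal were SMED30032292.1 (v31.047119, 1 to 1100), with 163 and 147 against 231 and 262, and SMED30033033 (v31.039319, 901 to 1900), with 205 and 198 against 239.6 and 242. Their log2 changes were -0.66 and -0.26, and both turned positive under quantile normalization (0.18 and 0.48). The region at the median of all changes, 377 bases from the start of SMED30016682 (v31.000347, 114401 to 115400), had 606 and 598 against 596 and 636 (log2 change -0.03, limma adjusted p 0.594). Its groups overlapped, and its direction turned under centring and without the second-listed control library.

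The share of lower regions also differed by position. Over a gene start, 64.3% of 3896 regions were lower after *mll*(RNAi) (95% Clopper-Pearson interval 62.8 to 65.9, which covers the counting of regions only), with a median change of -0.05. Within 2000 bases of a start but not over it, 31.7% of 1058 regions were lower (28.9 to 34.6), with a median of 0.04. Farther away, 59.5% of 215 regions were lower (52.6 to 66.2), with a median of -0.03. With libraries centred on their medians, the shares were 33.1%, 12.1% and 35.3%, lower in each class, and the share beside a start was again below that over a start. Limma called 1182 regions over a start lower (30.3%) and 397 higher (10.2%), against 106 (10%) and 149 (14.1%) beside a start and 73 (34%) and 18 (8.4%) farther away. Over all regions these shares were 26.3% and 10.9%. Over a start, 5.03% of regions fell by 0.5 or more, against 1.13% beside one. Rises of 0.2 or more went the other way, with 0.56% over a start and 2.55% beside one. Because regions beside a start are shorter, regions of 1000 bases were also compared. Of these, 72.8% of 735 over a start and 29.4% of 602 beside a start were lower. The share of lower regions was 64.3% over 1 start, 64.7% over 2 and 67.7% over 3 or more (31 regions, interval 48.6 to 83.3). Limma called 29.8%, 33.3% and 51.6% of these classes lower, and 5.14%, 3.61% and 9.68% fell by 0.5 or more.

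**Figure D4:**
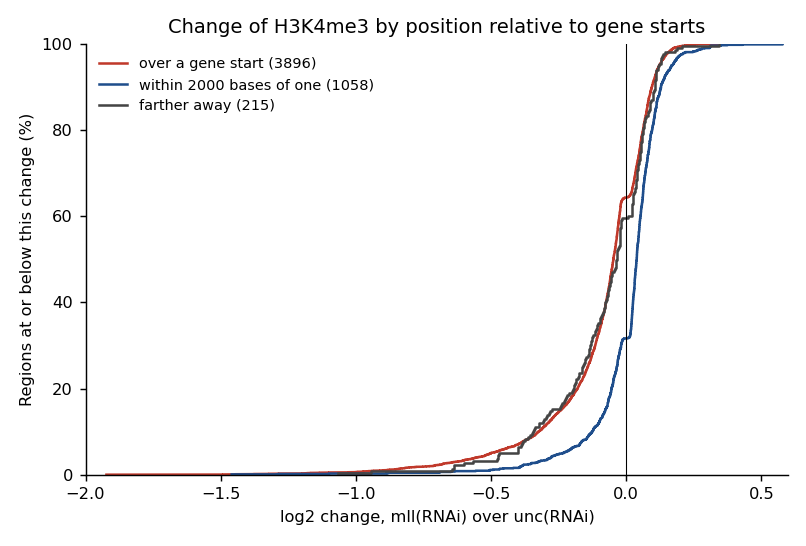
Cumulative share of regions (vertical, %) at or below a given log2 change from control to *mll*(RNAi) (horizontal), for regions over a gene start (3896), within 2000 bases of one (1058) and farther away (215). At a change of 0 the curve of regions beside a start stands at 31.7%, well under those over a start (64.3%) and farther away (59.5%).

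A fall away from annotated starts was seen at single regions. Beside a start, the second deepest fall was 673 bases from SMED30022318 (v31.000603, 112401 to 113600), with 223 and 218 after *mll*(RNAi) against 540.2 and 540.3 (log2 change -1.29, standard error 0.071, limma adjusted p 9.09e-70). Farther away, the deepest was 10296 bases from the start of SMED30014333 (v31.000344, 86801 to 87900), with 284 and 281 against 605 and 580.1 (log2 change -1.07, standard error 0.064, limma adjusted p 2.23e-58). It was followed by a region 9171 bases from SMED30002668 (v31.000911, 59601 to 60800), with 269 and 274 against 509 and 536. In all of these the 2 groups lay far apart and replicates differed by a few percent. Enrichment over input at the region near SMED30014333 went from 8.68 to 4.49. Whether unannotated genes start there was not analysed here.

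Centring the libraries on their medians raised the number of regions called higher from 564 to 2197, so counts of rises depend on the scaling. Under the authors' scaling rises were small, and only 51 regions rose by 0.2 or more. The highest was 299 bases from the start of SMED30027920 (v31.042760, 301 to 1400), with 333 and 316 after *mll*(RNAi) against 225.5 and 208 (log2 change 0.58, standard error 0.083, limma adjusted p 5.12e-11), where the enrichment over input rose from 1.95 to 3.43. The next was 27 bases from SMED30013405 (v31.004004, 26601 to 27600), with 447 and 421 against 302 and 343 (log2 change 0.43, standard error 0.068, limma adjusted p 2.72e-09). SMED30007270 (v31.002851, 45001 to 46100) had 563 and 661 against 469 and 472 at 53 bases from its start, and SMED30014211 (v31.008135, 15101 to 16200) had 397 in both *mll*(RNAi) libraries against 309.8 and 313 at 139 bases. So 4 of the 6 highest rises lay between 27 and 299 bases from a start without covering it. Another lay 12050 bases from SMED30010044 (v31.014747, 12801 to 13800), with 398 and 377 against 307 and 302. Over a start, the highest rise was at SMED30013013 (v31.000026, 25101 to 26600), with 949 and 1124 against 797 and 838. Its *mll*(RNAi) libraries differed most among these regions, and its enrichment over input did not rise (8.01 and 7.92). Of the 51 regions that rose by 0.2 or more, 27 lay beside a start, 22 over one and 2 farther away. Their control signal was low too, with a median normalized count of 495.3 and a median enrichment over input of 7.15.

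Regions that were lower and regions that were higher also overlapped each other. In 528 places 2 listed regions overlapped, by 100 to 900 bases, and their changes had opposite signs in every case. Whether the authors' program joins neighbouring windows of like direction, which would leave only such pairs, is not given in the sources used here. In 177 pairs the libraries of both regions were separated, with median changes of -0.06 in the lower and 0.06 in the higher region. The direction of changes this small depends on the scaling, since the library medians differed by -0.10 between the groups. Among these pairs the lower region covered a gene start in 150 and the higher one in 84. The lower region was the nearer to a start in 85 pairs, the higher in 25 and neither in 67. Limma called both members in 13 pairs. The widest difference was on scaffold v31.007635. From 8901 to 10000, at the start of SMED30003141, the counts were 226 and 216 after *mll*(RNAi) against 449 and 422 (log2 change -0.97, limma adjusted p 8.61e-36). From 7201 to 9300, at the start of SMED30035848, they were 926 and 938 against 799 and 782 (log2 change 0.24, limma adjusted p 5.41e-07). At SMED30017486 (v31.003130), 14401 to 16100 had 784 and 752 against 852 and 871, and 15601 to 16700, whose nearest start is 705 bases away, had 549.8 and 546 against 453 and 458. These pairs were chosen after their values were seen.

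The scaffold with the most regions called lower was v31.000002, with 5 of its 9 listed regions called lower and 1 called higher (26.3% and 10.9% over all regions). It was chosen for that count out of 3338 scaffolds, so the count is a description only. Its deepest fall was at the start of SMED30026279 (286701 to 288300), with 541 and 558 after *mll*(RNAi) against 704 and 719 (log2 change -0.37, limma adjusted p 5.29e-12). The others were 87209 bases from the start of SMED30002153 (418901 to 420700), at the start of SMED30017578 (11501 to 13000), 153 bases from that of SMED30021113 (472801 to 473800) and at that of SMED30023619 (13901 to 14900), and kept 82.7%, 84.8%, 85.3% and 88.9% of the control signal. None of these reached a fall of 0.5. Regions called lower were otherwise scattered over scaffolds, with 1215 scaffolds holding at least 1 of them and 132 holding 2 or more.

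The same knockdown was measured in X1 cells, with other libraries and controls, and 283 of the 306 regions listed there were lower (92.5%, all with both *mll*(RNAi) libraries below both controls), whereas 21 lay above both controls (6.86%). Of the 5169 whole-worm regions, 192 (3.7%) shared at least 1 base with 178 of the 306 X1 regions (58.2%). The overlap grew with the size of the whole-worm fall. An X1 region was listed at 18 of the 28 regions that fell by 1 or more (64.3%), at 77 of the 215 that fell by 0.5 or more (35.8%), at 57 of the 604 that fell by 0.2 to 0.5 (9.4%), at 32 of the 2151 that were lower by under 0.2 (1.5%) and at 24 of the 2148 that were higher by under 0.2 (1.1%). All 134 pairs with a whole-worm fall of 0.2 or more were lower in X1 too. Below that size the directions were mixed, with 19 lower and 13 higher in X1. From the other side, 141 of the 163 whole-worm regions that met a lowered X1 region were called lower in whole worms (86.5%, background 26.3%) and 5 were called higher. The 77 large falls with an X1 region did not stand out in their position or control enrichment from the 138 without one (90.9% and 91.3% over a start, medians 6.87 and 7.13), and their median change was -0.78 against -0.64. No test was run across tables.

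The values of single genes show the 2 materials side by side. At SMED30025729 the X1 counts were 14.9 and 18.4 after *mll*(RNAi) against 72.5 and 57.4, a log2 change of -1.90 beside -1.92 in whole worms. SMED30018035 had 55.3 and 49.5 against 144 and 135 in X1 (log2 change -1.40, beside -1.59 in whole worms). SMED30030034 had 24.4 and 23.3 against 90.0 and 99.0 (-1.94, beside -1.43 in whole worms). The same counts at SMED30022889 were 21.4 and 11.03 against 92.4 and 82.6 (-2.43, beside -1.38). SMED30027304, like SMED30018035, fell less in X1 than in whole worms, with 51.1 and 61.1 against 101 and 98.7 in X1 (-0.83, beside -1.48). Of the 77 large falls with an X1 region, 64 had the larger log2 fall in X1, where a median of 43.7% of the control signal was left. Among the 18 of them that fell by 1 or more in whole worms, only 10 had the larger fall in X1. Of the 283 lowered X1 regions only 15 had fallen by under 0.7, so small falls in X1 could hardly enter these counts.

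In Xins cells the table held only 12 regions, all lower, and every one of them overlapped a whole-worm region that limma called lower (background 26.3%). At 2 of these the X1 table listed a fall as well. SMED30025250 (v31.001837, 34801 to 36700) had 366 and 402 after *mll*(RNAi) against 846 and 896 in whole worms. In X1 it had 33.1 and 23.1 against 170 and 159, and in Xins 23.6 and 28.8 against 64.5 and 56.9. The log2 changes were -1.18, -2.53 and -1.18. A region 16172 bases from the start of SMED30001586 (v31.001731, 29901 to 31800) had a log2 change of -0.64 in whole worms, beside -1.36 (X1) and -1.02 (Xins). SMED30013558 (v31.000039, 31801 to 33500) had 356 and 379 against 802 and 819 in whole worms and 7.02 and 15.0 against 60.2 and 60.1 in Xins, with no listed region in X1 (log2 changes -1.14 and -2.43). The whole-worm changes of the 12 ran from -1.18 to -0.10. The smallest, at SMED30012554 (v31.000036, 333101 to 334700), had 815 and 793 against 875 and 854 and an adjusted p-value of 0.0495 in limma, which other settings did not all keep. These 12 regions were picked out after the Xins table was seen.

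*set1*(RNAi) in whole worms, with its own controls and 6 days of feeding, gave another picture at the same places. There 4169 of 8633 listed regions were lower (48.3%), with both libraries below both controls at 41.2% and above both at 36.6%, and 4658 of the 5169 *mll* regions (90.1%) overlapped 6394 of them (74.1%). Of the 7265 overlapping pairs, 1912 were lower in both, 1594 were higher in both, 2054 were lower after *mll*(RNAi) and higher after *set1*(RNAi), and 1705 the reverse. Of the 28 regions that fell by 1 or more after *mll*(RNAi), only 18 (64.3%) met a listed *set1* region. There 17 of 18 pairs were higher after *set1*(RNAi), with a median log2 change of 0.14 (range -0.09 to 0.26). At regions that fell by 0.5 or more, of which 152 of 215 met one, it was 127 of 196 pairs. At regions that rose by 0.2 or more, of which 34 of 51 met one, 30 of 40 pairs were lower after *set1*(RNAi). Over all pairs 50.2% were higher and 49.8% lower after *set1*(RNAi). At SMED30025039 the *set1* table had 661 and 651 against 591 and 605 and at SMED30030034 534 and 576 against 533 and 503, with log2 changes of 0.13 and 0.10. In the other direction, the rise near SMED30013405 met a fall from 909 and 874 to 771 and 693 (-0.29), and the rise near SMED30017563 (v31.007184, 10401 to 11500, with 572 and 623 against 479 and 483 after *mll*(RNAi)) met a change of -0.10. Other scalings of the *set1*(RNAi) values were not tried, so the direction of changes this small is uncertain. The 2 knockdowns differ in days of feeding and in libraries, so these values are set side by side and were not tested.

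Regions with less of the mark after *set1*(RNAi) in sorted cells changed little in whole *mll*(RNAi) worms. Of the 554 *set1* X1 regions, 553 were lower (99.8%), and 448 of them overlapped 519 whole-worm *mll* regions. These had a median change of 0.04. Limma called 62 of the 519 lower (11.9%, background 26.3%) and 130 higher (25%, background 10.9%). At the 118 whole-worm regions that met one of the 106 *set1* Xins regions, all lower there, 9 were called lower (7.6%) and 37 higher (31.4%). Their control enrichment was high, with medians of 11.59 at the *set1* X1 regions and 11.91 at the *set1* Xins regions, against 7.71 at those that met a lowered *mll* X1 region. The longest listed region, named after its values were seen, at SMED30025591 (v31.007072, 5801 to 9400), was of this kind, with 3201 and 3244 after *mll*(RNAi) against 2965 and 3021 (log2 change 0.11, limma adjusted p 0.000529) and a change of -0.83 after *set1*(RNAi) in X1. As above, the direction of changes this small turned on the scaling, but their median lay above that of all regions (-0.03). Their higher level of signal moved with the same result, and its part was not tested.

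**Figure D5:**
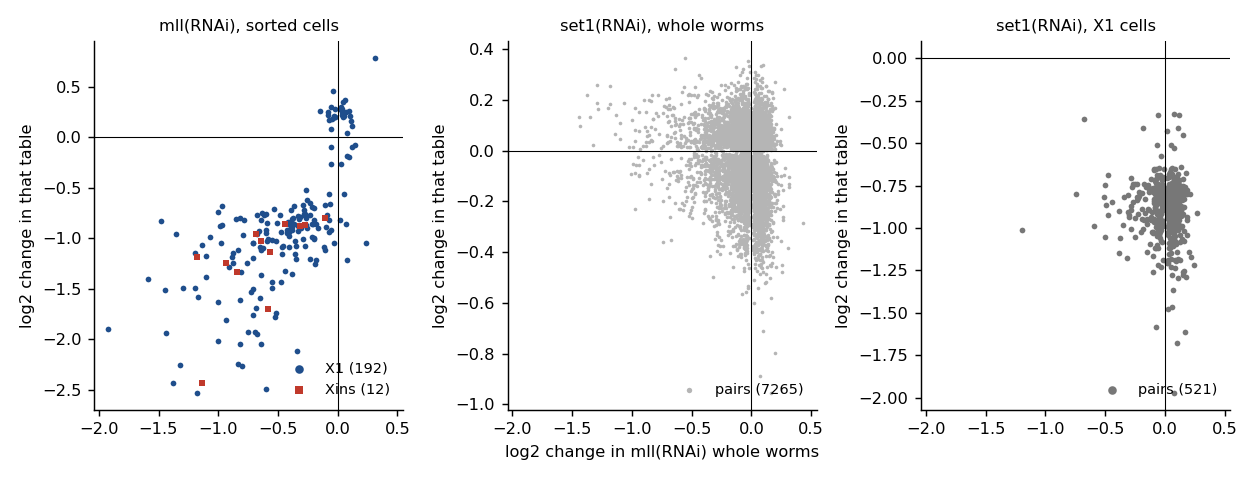
Log2 change in whole *mll*(RNAi) worms (horizontal in all panels) against the change of the overlapping region in another table (vertical), 1 point per pair of regions. In the left panel (*mll*(RNAi), X1 with 192 pairs and Xins with 12) all falls of 0.2 or more lie at falls in the sorted cells. In the middle panel (*set1*(RNAi) in whole worms, 7265 pairs) the deepest *mll* falls lie mostly above 0, and in the right panel (*set1*(RNAi) in X1, 521 pairs) 327 pairs lie to the right of 0.

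In untreated worms, the comparison of X1 with Xins cells, taken as X1 divided by Xins because its name gives them in that order, covered only part of the scaffolds here. Its regions overlapped 734 of the 5169 *mll* regions (14.2%), in 753 pairs of which 540 were higher in X1 (71.7%, against 62.6% of its 1378 regions). Among *mll* regions that fell by 0.5 or more, 18 of 24 pairs were higher in X1 and 6 were higher in Xins. Among those that rose by 0.2 or more, 6 of 9 pairs were higher in Xins. At SMED30018035 the untreated counts were 27.9 and 23.3 in X1 and 4.43 and 6.87 in Xins. At SMED30013013, where the mark rose, they were 34.0 and 34.4 in X1 and 91.2 and 70.3 in Xins. No test was run across these tables.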

How the data were processed

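The authors called reads with CASAVA 1.8.2, and their processing notes also name Bowtie and MACS2. The table is diffReps output by its name (the program compares read counts between groups in sliding windows), while no source used here gives its version, test, windows or thresholds or the genome build. The *Drosophila* cells that the protocol mentions were not used here, and no source says whether the scaling used them. For each region the authors deposited the scaled read count of each library, 2 values in 1 cell with no replicate number, the mean signal of each group, and the enrichment over input as 1 ratio per group. The deposited distances to gene starts and region lengths are in bases. Columns of the authors' own comparison (direction, log2 fold change, p-value, adjusted value and window) were not used.

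The 7512 lines (region and gene pairs) were reduced to 5169 regions. Log2(normalized count + 1) of both groups entered limma 3.58.1 (R 4.3.3) with a variance trend on the mean and Benjamini-Hochberg adjustment over all regions at 0.05. The fit was tested on simulated data first. A fold change is thus on the log2(count + 1) scale, and the lowest mean count was 200.5. Reads were recovered as whole multiples (tolerance 0.01) of the worth of 1 read, found in 28 of 43 runs of scaffolds with 5100 regions (98.7%). The worth of 1 read differed by up to a few percent between runs within a library, so the scaling was not one for all scaffolds. Regions of different tables were matched by at least 1 shared base. Tables were scaled separately, so no test was run across them. Intervals cover counting error only.

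Regions named are, among separated ones, the 10 deepest falls and 6 highest rises, extremes by position, by control signal and by overlap with other tables, the scaffold with the most lower calls and the median region. Regions added after their values were seen are marked. Members and lists were chosen with earlier results of these data known. Alternatives covered the pseudocount, the variance model, filters, scaling, left-out libraries and the overlap. Gene names, sequences and marker lists were not analysed here.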

Additional observations from a re-analysis of the deposited data

Results flagged for a closer look

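At 15 whole-worm regions that overlapped a listed region of X1 cells, the libraries were separated in both tables but in opposite directions. The difference between the materials was not tested. At 8 of them H3K4me3 was lower in whole *mll*(RNAi) worms and higher in X1. SMED30005857 had log2 changes of -0.15 in whole worms and 0.26 in X1, SMED30027641 -0.08 and 0.25, SMED30021617 -0.08 and 0.22, SMED30031071 -0.07 and 0.17, SMED30008895 -0.06 and 0.30, SMED30015929 -0.04 and 0.18, SMED30028902 -0.04 and 0.45, and SMED30033688 -0.02 and 0.28. Limma called none of these 8 in whole worms, and 7 of them turned positive with libraries centred on their medians.

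At the other 7 regions the mark was higher in whole worms and lower in X1. The changes were 0.07 and -0.18 at SMED30034512, 0.07 and -0.86 at SMED30002903, 0.08 and -1.22 at SMED30035755, 0.10 and -0.19 at SMED30022942, 0.12 and -0.10 at SMED30004920, 0.14 and -0.08 at SMED30018637, and 0.24 and -1.04 at SMED30035848. Limma called 5 of these higher in whole worms, with adjusted p-values from 5.41e-07 to 0.0333. At SMED30035848 the X1 region shared only 400 bases with the whole-worm rise and also overlapped the fall at SMED30003141 beside it. At SMED30035755 the X1 region shared 200 bases, and its counts were 24.1 and 29.8 after *mll*(RNAi) against 68.5 and 59.0.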

How the results depend on the processing

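The count of calls depended on the scaling. With libraries centred on their medians limma called 2979 regions, 782 lower and 2197 higher (26.3% lower, against 70.7%), and 28.9% of all regions were lower. Quantile normalization gave 866 lower and 982 higher calls (46.9% lower). Without a variance trend 75.9% of calls were lower, and by counting error alone, an alternative chosen after seeing the data, 73.7%. Leaving out 1 library gave 1245 to 1708 calls, 982 to 1276 of them lower and 252 to 445 higher (72.8% to 79.9% lower). The lowest numbers came without a control library, where the lone one is assumed to vary like the *mll*(RNAi) libraries. Pseudocounts of 0.5 and 5, robust variances, filters on the mean (50 and 200, which removed nothing), every line of the table and 1 scale for all scaffolds kept the counts within 1.5 times. The gap between groups exceeded the wider range within a group at 2000 of 3836 separated regions. The share of lower regions was 94.1% among changes of at least 0.2, 99.5% at 0.5, 100.0% at 1, and 69.6% by the deposited enrichment. Among called regions it was 74.9% over a start, 41.6% beside one and 80.2% farther away.

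For pairs of overlapping regions, the share with the same direction moved from 88.0% to 96.7% in *mll* X1 when only called regions were used. In *set1* whole worms it moved from 48.3% to 44.7% (at least 50% of the shorter region shared) and 45.8% (called regions), in *set1* X1 from 37.2% to 27.4% and 32.5%, in *set1* Xins from 33.6% to 19.1% (called regions), and in X1 against Xins from 51.1% to 58.2% (50% shared).

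Of 52 regions followed by name or added later, 6 turned in at least 1 setting. Under quantile normalization SMED30032292.1 was at 0.18, SMED30020014 (from 11701) at 0.07, SMED30033033 at 0.48, SMED30008693 at 0.02 and SMED30016682 at 0.07, and under centring SMED30008693 was at 0.04 and SMED30016682 at 0.07. SMED30016682 ranged from -0.08 to 0.01 with 1 library left out (0.01 without the second-listed control library), and SMED30013687 at -0.01 without the first-listed *mll*(RNAi) library. The cause was not tested. No paired analysis was possible because the columns carry no replicate numbers. The median standard error was 0.046. Limma called 528 of the 681 falls of 0.1 to 0.2 and 424 of the 515 rises of that size. Of smaller changes it called 14 of 1470 falls and 89 of 1633 rises. The part of depth was not tested.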

Other observations

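Small changes were listed only in bands of signal. Among the 3103 regions that changed by under 0.1, 15 had a mean normalized count from 300 to 340, 1 from 340 to 400, 51 from 400 to 440, 0 from 440 to 460, 95 from 460 to 500, 7 from 500 to 580 and 270 from 580 to 620. Among the regions that fell by 0.2 or more the same classes held 34, 48, 50, 29, 93, 170 and 63. The limits of these classes were chosen after the values were seen. Shares and medians over all listed regions include these bands.

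The region with the most gene starts inside it, 5 starts by the deposited annotation, was at SMED30008693 (v31.000340, 97901 to 98900) and was chosen after its values were seen. Its counts were 604 and 590.1 after *mll*(RNAi) against 632 and 616, a log2 change of -0.06 that limma did not call (adjusted p 0.324).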
